A study of Mus musculus with 27 samples.

Results

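Pou5f1, Sox2, Nanog, Sall4 and Zscan10 are 5 transcription factor genes of the pluripotency core. Their rows were taken by gene symbol from a bulk RNA-seq table, where they are 5 of 23604 genes, and from 2 tables of single cells, where they are 5 of 16299 and 5 of 16176 genes. The 19 bulk libraries came from mouse pluripotent cells, all labelled wild type. mESCs (2 libraries), the naïve ground state, grew feeder-free in N2B27 medium with PD035901 at 1 µM, Chir99021 at 3 µM and LIF. EpiLCs (2 libraries), a transient culture of epiblast-like cells, were kept in N2B27 with 1% KSR, Activin A at 20 ng/ml and bFgf2 at 12 ng/ml. EpiSCs (2 libraries), the primed state, grew on inactivated mouse embryonic fibroblasts in N2B27 with 15% KSR, the same doses of Activin A and bFgf2, and XAV939 at 5 µM, an inhibitor of Wnt signalling. Epiblastoids (1 library each on days 2, 3 and 4) are mESCs embedded in Matrigel in the EpiLC medium. fPSCs, the formative cells that the study stabilised in 3D culture, received Activin A and bFgf2 at these doses and XAV939 in N2B27, and are represented by 1 library at passage 1 (P1) and 7 long-term libraries. A further 2 fPSC libraries at P10 were derived from E5.5 and E6.5 epiblasts.

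The 7 long-term fPSC libraries fall into 2 sets by the protocol text of their labels. Set 1 (P10, P20 and P30, whose labels name no line) has the text of all other bulk libraries. Set 2 (CMT P11, 46C P24, BVSC P14 and ROSAmTmG P12, each 1 line) names another library kit. Its labels write the XAV939 dose of 5 in mM, where those of set 1 write µM. By the study's text 46C cells carry a Sox1-GFP reporter, BVSC cells a Blimp1-Stella reporter, and ROSAmTmG cells show tdTomato. These reporter lines are in set 2 only. Values are FPKM, which count fragments relative to transcript length and to the size of the library. The sum of FPKM over genes was 307394 to 414727, and 10034 to 10933 genes a library reached 1 FPKM. RNAs without a poly(A) tail, a list of 10, summed to 1599 to 4265 FPKM in mESCs, 17.3 to 30.8 in EpiLCs and 8.50 to 11.5 in EpiSCs. A list of 12 fibroblast markers summed to 225 to 307.1 FPKM in EpiSCs and to at most 13.5 in any other group. Of 11 naïve factors, 11 reached a mean of 1 FPKM in mESCs and 1 in long-term fPSCs, and of 12 formative factors 9 did so in mESCs and 12 each in EpiLCs, EpiSCs and fPSCs. Of 11 primed lineage factors, 5 did so in EpiSCs and 8 in long-term fPSCs, so this list did not set EpiSCs apart. Primed factors summed to 38.9 to 329 FPKM in long-term fPSCs, 68.9 to 75.6 in EpiSCs and at most 22.8 in mESCs and EpiLCs. A list of 9 endoderm markers summed to 7.66 to 184 FPKM in long-term fPSCs, 18.2 to 19.97 in EpiSCs and at most 2.86 in mESCs and EpiLCs. The part of these markers in the fPSC differences was not tested.

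Pou5f1 (Oct4) is a POU-domain factor that binds DNA together with Sox2, an HMG-box factor, at composite sites next to many genes of pluripotent cells, Nanog and both of their own genes among them. Nanog is a homeobox factor that holds cells in the naïve state and is known to fall as the epiblast leaves it and to return in the posterior epiblast. Sall4 is a zinc finger factor that binds AT-rich DNA, interacts with Oct4 and Nanog, and keeps Pou5f1 on. Zscan10 is a SCAN-domain zinc finger factor of embryonic stem cells.

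The genes lie on 4 chromosomes of mm9. Pou5f1 (ENSMUSG00000024406) spans chr17:35642982-35647721 and Zscan10 (ENSMUSG00000023902) chr17:23737823-23747986, both on the plus strand. Sox2 (ENSMUSG00000074637) spans chr3:34548927-34551383, within the long noncoding gene Sox2ot on the same strand. Nanog (ENSMUSG00000012396) spans chr6:122657507-122664651 on the plus strand, and Sall4 (ENSMUSG00000027547) chr2:168573832-168593443 on the minus strand. Start sites are those of the most upstream consensus coding (CCDS) transcript. The 250 bases before the start site hold 25 CpG in Sox2, more than or as many as 88.5% of 22089 protein-coding genes, 9 in Sall4, 7 in Pou5f1 and 2 each in Nanog and Zscan10, against a median of 9. These sequences are shown because the methylation and histone marks given further on were measured over them, with CpG in capitals. They were read from mm9 on the plus strand, 5′ to 3′, at chr3:34548677-34548926 (Sox2), chr17:35642732-35642981 (Pou5f1) and chr6:122657336-122657506 (Nanog, where the 79 bases next to the start site belong to another annotated transcript and are left out).
Sox2 upstream: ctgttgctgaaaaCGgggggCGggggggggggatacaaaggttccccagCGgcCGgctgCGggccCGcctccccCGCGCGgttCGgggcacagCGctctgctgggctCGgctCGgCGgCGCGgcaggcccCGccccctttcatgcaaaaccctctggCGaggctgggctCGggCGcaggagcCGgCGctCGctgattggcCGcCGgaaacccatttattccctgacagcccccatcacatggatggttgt
Pou5f1 upstream: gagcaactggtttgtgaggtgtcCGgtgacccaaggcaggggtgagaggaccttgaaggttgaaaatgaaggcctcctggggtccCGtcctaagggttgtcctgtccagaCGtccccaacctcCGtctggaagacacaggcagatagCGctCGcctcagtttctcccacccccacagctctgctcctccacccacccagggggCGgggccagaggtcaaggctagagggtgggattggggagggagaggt
Nanog upstream: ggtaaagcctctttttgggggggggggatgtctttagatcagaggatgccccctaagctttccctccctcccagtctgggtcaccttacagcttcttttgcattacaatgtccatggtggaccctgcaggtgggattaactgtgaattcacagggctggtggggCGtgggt

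Within 250 bases before and 50 after the start site, a composite Oct-Sox site (CATTGT, 1 base of any kind, then ATGCAAA, searched on both strands) was found in 1 of 22089 promoters, 0.00453%, and that promoter was Nanog's. The match begins 154 bases before the start site and reads on the other strand. It is shown on the plus strand with the 14 matching bases in capitals (chr6:122657426-122657451).
Nanog composite site: gcttctTTTGCATTACAATGtccatg
The Sox motif alone, CATTGT, was in 10.6% of promoters and among the 5 only in Nanog, where it overlaps the composite. The octamer ATGCAAAT was in 1.73% of promoters and in none of the 5. The GC box GGGCGG was in 44.8% of promoters, with 1 match in Pou5f1 and 2 in Sox2. Within 5000 bp to each side, where 22088 promoters could be searched, the composite was in 0.0362% and again in Nanog alone of the 5, and the octamer in 42.9% and in Pou5f1 alone. A match describes these letters and is not a measured site.

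Pou5f1 had the highest FPKM of the 5 genes in each of the 19 libraries and moved within a 4.54-fold range. Its level was 760.2 and 764 FPKM in the 2 mESC libraries, 392 and 732 in EpiLCs and 226 and 234 in EpiSCs. Across the 7 long-term fPSC libraries the lowest was 462, the median 577 and the highest 1025 FPKM. EpiSCs were therefore below every other bulk library, while the fPSC libraries reached to both sides of the mESCs and of the higher EpiLC library. The levels fell in EpiSCs relative to mESCs by 1.73 on the log2(FPKM + 1) scale (SE 0.42, adjusted p = 0.00468) and were 1.51 higher in fPSCs than in EpiSCs (SE 0.34, adjusted p = 0.00419). These p-values are limma's, from a single fit over mESCs, EpiLCs, EpiSCs and long-term fPSCs, adjusted after Benjamini and Hochberg over 12513 genes. A gene was called where the adjusted p was below 0.05 and the fold change reached 1.5. EpiSCs were also below EpiLCs, by 1.22 (SE 0.42, limma adjusted p = 0.0382). That call was lost without EpiSC replicate 1 (adjusted p = 0.129), without EpiSC replicate 2 (0.13) and without EpiLC replicate 2 (difference -0.77, adjusted p = 0.283), and also with no filter on low values (0.0602). The call of fPSCs over EpiSCs was lost without EpiSC replicate 2 (adjusted p = 0.0539). Neighbouring states in the order mESCs, fPSCs and EpiLCs did not differ past the threshold, with differences of -0.21 (95% interval -0.95 to 0.52) for fPSCs minus mESCs and 0.30 (-0.44 to 1.03) for fPSCs minus EpiLCs. In bulk RNA, fewer cells that express a gene and less RNA per cell cannot be told apart. The fibroblast markers above were highest in the EpiSC libraries, 9 of 12 with a mean of at least 1 FPKM against 1 in fPSCs, and their part in the EpiSC levels was not tested. The labels do not say that replicates came from separate cultures, so the p-values measure the spread between these libraries.

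Sox2 separated mESCs from all other states. The 2 mESC libraries held 218 and 210.1 FPKM, EpiSCs 80.8 and 62.3, and EpiLCs 24.8 and 22.0. The 7 long-term fPSC libraries ranged from 24.1 through a median of 26.6 to 42.6 FPKM, with no overlap with mESCs or EpiSCs. How many of all genes lack overlap between these groups was not counted. Relative to mESCs, Sox2 fell by 3.14 on the log2 scale in EpiLCs (SE 0.27, limma adjusted p = 1.81e-06), by 2.80 in fPSCs (SE 0.21, 2.91e-07) and by 1.58 in EpiSCs (SE 0.27, 0.000355). EpiSCs were 1.56 above EpiLCs (SE 0.27, limma adjusted p = 0.000629), and fPSCs were 1.21 below EpiSCs (difference -1.21, SE 0.21, 0.000839). Thus the order was mESCs, EpiSCs, fPSCs and EpiLCs, and only its last neighbours were not called, at 0.35 (95% interval -0.12 to 0.81, limma adjusted p = 0.331). Among these 4 states Sox2 was lowest in EpiLCs and fPSCs, not in the primed EpiSCs.

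Of the 5 genes, Nanog differed most between the means of these 4 states. It was at 284 and 345 FPKM in mESCs, at 8.60 and 7.998 in EpiLCs and at 19.6 and 15.7 in EpiSCs. In the 7 long-term fPSC libraries it ran from 53.6 through a median of 70.8 to 82.8 FPKM. The 4 groups did not overlap, and all 6 comparisons between them were called. The share of all genes without such overlap was not counted. In EpiLCs Nanog fell by 5.08 on the log2 scale relative to mESCs (SE 0.21, limma adjusted p = 2.22e-09), which placed it in the lowest 0.25% of tested genes. Against EpiLCs, fPSCs were 2.898 higher (SE 0.17, limma adjusted p = 8.78e-08), at the 99.9th percentile of tested genes. Against EpiSCs, fPSCs were 1.90 higher (SE 0.17, limma adjusted p = 2.11e-06). fPSCs remained below mESCs, with a difference of -2.18 (SE 0.17, limma adjusted p = 3.10e-07). EpiSCs were 4.08 below mESCs (difference -4.08, SE 0.21, limma adjusted p = 6.94e-09) and 1.00 above EpiLCs (SE 0.21, 0.00272). The 2 listed copies Nanog-ps1 and Nanog-ps2 had at most 0.353 and 0 FPKM in any library.

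Sall4 was the gene with no call among these 6 comparisons. It held 61.8 and 44.6 FPKM in mESCs, 51.7 and 29.1 in EpiLCs, and 106 and 75.7 in EpiSCs. In long-term fPSCs it ran from 47.1 through a median of 61.1 to 139.7 FPKM, which holds both EpiSC libraries and the higher mESC and EpiLC libraries. Its largest differences were 1.19 for EpiSCs minus EpiLCs (SE 0.50, limma adjusted p = 0.0807) and 1.01 for fPSCs minus EpiLCs (SE 0.40, 0.118). For fPSCs minus mESCs it was 0.58 (SE 0.40, limma adjusted p = 0.262) and for fPSCs minus EpiSCs -0.18 (95% interval -1.05 to 0.69, limma adjusted p = 0.76).

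Zscan10 ran in another order, with EpiSCs lowest. It was at 48.0 and 47.2 FPKM in mESCs, 89.7 and 65.2 in EpiLCs and 29.5 and 41.1 in EpiSCs, and in long-term fPSCs it ran from 50.8 through a median of 68.3 to 98.8. EpiSCs therefore lay below all other bulk libraries and mESCs came next. The level in fPSCs was 1.01 above EpiSCs (SE 0.23, limma adjusted p = 0.00435) and that in EpiSCs lower than in EpiLCs (difference -1.113, SE 0.28, 0.00847). Without EpiSC replicate 1 neither was called (limma adjusted p = 0.09 and 0.083), and without EpiLC replicate 1 the second was not (0.0716). Neighbours that were not called were EpiSCs and mESCs (-0.44, limma adjusted p = 0.214), mESCs and fPSCs (0.57, 0.0573) and fPSCs and EpiLCs (-0.10, 0.835). Without the 46C library the difference of fPSCs from mESCs was called, at 0.65 (limma adjusted p = 0.0216).

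**Figure D1:**
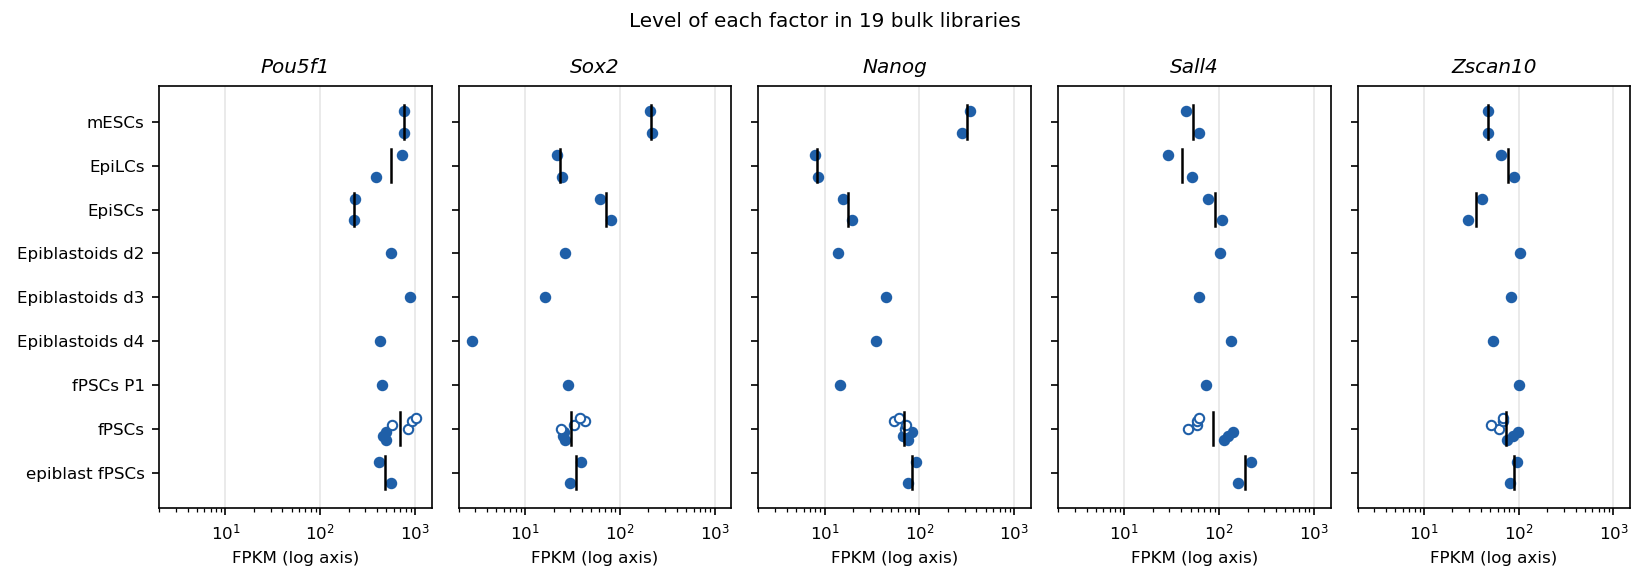
FPKM (log axis) of each of the 5 genes in the 19 bulk libraries, 1 point a library. Filled points carry the first protocol text and open points the second (set 2), and black bars are group means where a group has more than 1 library. Nanog in long-term fPSCs, from 53.6 to 82.8 FPKM, lies between mESCs and the EpiLC and EpiSC libraries, while Sox2 of the same libraries, at 24.1 to 42.6, lies beside EpiLCs.

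Counted over the comparisons, 2 of the 5 genes were called for EpiLCs minus mESCs (Sox2 and Nanog, both lower), where 29.6% of all tested genes were called. For EpiSCs minus mESCs 3 were called (Pou5f1, Sox2 and Nanog, all lower) against 47.8% of genes, and for EpiSCs minus EpiLCs 4 (Sox2 and Nanog higher, Pou5f1 and Zscan10 lower) against 35.9%. For fPSCs minus mESCs 2 were called (Sox2 and Nanog, lower) against 40.3%, for fPSCs minus EpiLCs 1 (Nanog, higher) against 13.8%, and for fPSCs minus EpiSCs 4 (Pou5f1, Nanog and Zscan10 higher, Sox2 lower) against 32.3%. The median log2 difference of all tested genes was between -0.09 and 0.02 in these 6 comparisons. The comparisons share libraries and are not independent of each other.

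Within set 1, whose labels share their protocol text with the other states, the differences of fPSCs were recomputed with the P10, P20 and P30 libraries alone. By the study's text these are passages of 1 line, CMT, so the SEs and p-values below do not measure the spread between lines. The shared text does not make the libraries alike in Rn7s1, an RNA without a poly(A) tail. It was at 103 to 134 FPKM in P10, P20 and P30 and at 391 and 1641 in mESCs. In EpiLCs it was at 2.66 and 6.39 FPKM and in EpiSCs at 1.58 and 2.08, and its part in these differences was not tested. For fPSCs minus mESCs all 5 genes were then called, against 51.8% of genes: Pou5f1 fell by 0.65 (SE 0.24, limma adjusted p = 0.044), Sox2 fell by 3.01 and Nanog fell by 2.06, while Sall4 rose by 1.23 (SE 0.26, 0.00309) and Zscan10 by 0.84 (SE 0.20, 0.00568). For fPSCs minus EpiLCs 2 genes were called against 25.8%, Nanog at 3.02 and Sall4 at 1.66 (limma adjusted p = 0.00187). For fPSCs minus EpiSCs the same 4 genes as with all 7 libraries were called against 31.5%, with differences of 1.07 for Pou5f1, -1.43 for Sox2, 2.02 for Nanog and 1.28 for Zscan10. With set 2 alone 2 of the 5 genes were called for fPSCs minus mESCs against 43.8% of genes, and 1 for fPSCs minus EpiLCs against 21.2%. For fPSCs minus EpiSCs 5 were then called against 46.5%, among them Sall4, lower in fPSCs at -0.67 (limma adjusted p = 0.0433).

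**Figure D2:**
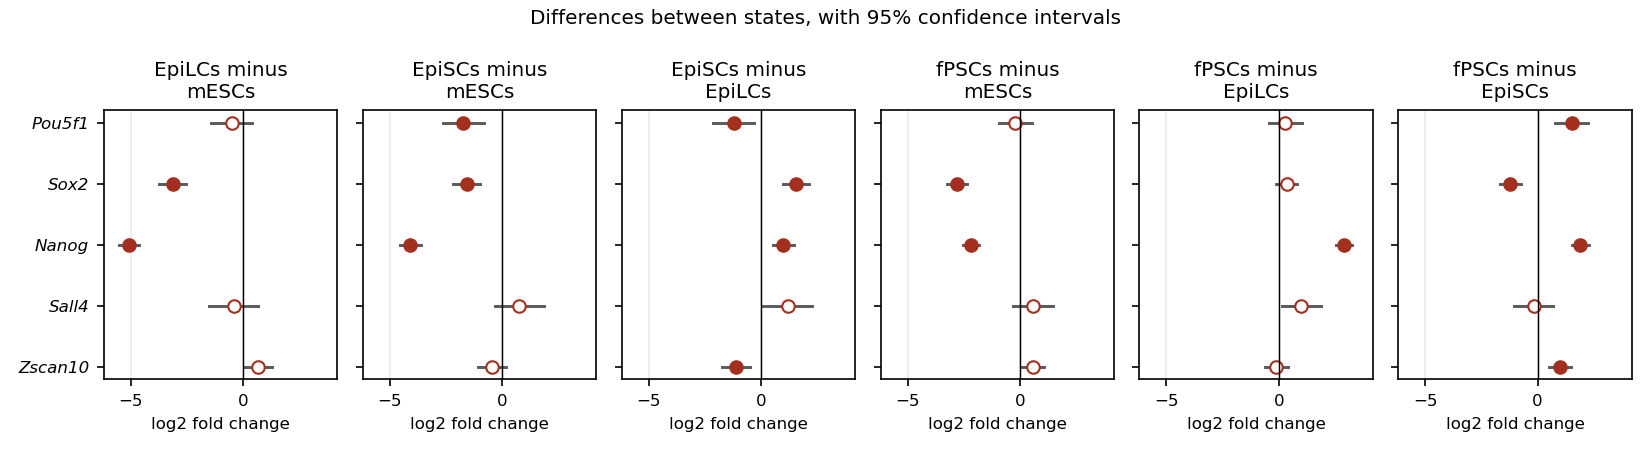
Log2 fold change on the log2(FPKM + 1) scale (x axis) of the 5 genes in 6 comparisons, with the 95% confidence intervals of the limma fit as lines. Filled points are genes called by the same rule as in the text. Nanog was called in all 6 panels, Sox2 in 5, and Sall4 in none.

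The balance of the factors within a library was taken as the log2 ratio of each gene's FPKM + 1 to Pou5f1's FPKM + 1. Sox2 over Pou5f1 averaged -4.41 ± 0.37 (SD, n = 7) in fPSCs, -1.83 ± 0.05 (n = 2) in mESCs, -4.46 ± 0.75 (n = 2) in EpiLCs and -1.68 ± 0.30 (n = 2) in EpiSCs. mESCs and EpiSCs thus held Sox2 and Pou5f1 in a like ratio, although both genes were lower in EpiSCs. Nanog over Pou5f1 averaged -3.25 ± 0.65 in fPSCs, -1.28 ± 0.19 in mESCs, -5.85 ± 0.70 in EpiLCs and -3.64 ± 0.25 in EpiSCs. The fPSC ratio of Nanog exceeded that of EpiSCs by 0.38 only, with overlapping libraries (exact permutation p = 0.444, two-sided, n = 7 and 2). Sox2 differed by -2.58 from mESCs and by -2.73 from EpiSCs, and Nanog by -1.97 from mESCs and by 2.60 from EpiLCs. Each of these 4 differences had an exact permutation p of 0.0278, the smallest that 7 against 2 libraries allow, and an adjusted p of 0.0833 over 12 tests, so none passed 0.05. Sall4 over Pou5f1 differed by 0.80 from mESCs, by 0.71 from EpiLCs and by -1.69 from EpiSCs, and Zscan10 over Pou5f1 by 0.78, -0.40 and -0.50, with exact permutation p from 0.111 to 0.472.

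During the 3D culture of Epiblastoids the 5 genes took different courses, described here from 1 library a day without a test. Nanog was at 13.9 FPKM on day 2, 44.9 on day 3 and 34.8 on day 4. Pou5f1 was at 552 FPKM on day 2, 879 on day 3 and 429 on day 4. Sox2 went from 26.3 to 16.4 and then to 2.73 FPKM, its lowest level in the 19 libraries. From day 3 to day 4 its log2 ratio was -2.22, at the 0.55th percentile of 11357 genes. Sall4 was at 101.6, 60.9 and 133 FPKM on the 3 days, and Zscan10 at 102.3, 83.2 and 53.6. On day 4, 11 primed lineage factors summed to 704 FPKM against 53.1 on day 3, and 9 endoderm markers to 172 against 1.52. RNAs without a poly(A) tail summed to 19.2 FPKM on day 2, 1449 on day 3 and 768 on day 4. The part of these lists in the courses was not tested.

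At P1 the fPSC library held 14.4 FPKM of Nanog, next to the 13.9 of day 2 Epiblastoids and 0.73 above EpiLCs on the log2(FPKM + 1) scale. Long-term fPSCs were 2.17 above P1 on the same scale, a 4.49-fold ratio at the 99.7th percentile of 11643 genes. The other genes differed less from P1: 0.54 for Pou5f1, 0.06 for Sox2, 0.12 for Sall4 and -0.48 for Zscan10. P1 is 1 library, and no test was made.

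Among the 7 long-term fPSC libraries, Pou5f1, Sall4 and Zscan10 split by set. Pou5f1 was at 493 (P10), 462 (P20) and 499 (P30) FPKM in set 1 and at 577 (46C), 852 (CMT), 931 (BVSC) and 1025 (ROSAmTmG) in set 2. Sall4 was at 113, 123 and 139.7 FPKM in set 1 and at 59.1, 47.1, 58.4 and 61.1 in set 2 in the same order. Zscan10 was at 75.1 to 98.8 FPKM in set 1 and 50.8 to 68.3 in set 2. None of these genes overlapped between the sets, and the share of all genes without overlap was not counted. In a limma fit over these 7 libraries, 2 of the 5 genes were called, where 29.7% of 10930 genes were: Pou5f1 was 0.77 higher in set 2 (SE 0.19, adjusted p = 0.0105) and Sall4 fell by 1.14 (SE 0.12, 0.000357). The median of all genes was 0.19 higher in set 2. Zscan10 had a difference of -0.47 (SE 0.14, limma adjusted p = 0.0223) and missed the fold limit, while Nanog (-0.22) and Sox2 (0.37) missed the adjusted p. Rn7s1, an RNA without a poly(A) tail, was at 103 to 134 FPKM in set 1 and 1.08 to 2.79 in set 2, and its part in these differences was not tested. The kit and the medium label cannot be told apart between the sets. The labels of set 1 give no line, but the study's text assigns P10, P20 and P30 to CMT too and describes CMT P11 as cryopreserved. Within that line, where CMT P11 alone stood for set 2, both genes were again called, Pou5f1 at 0.81 (limma adjusted p = 0.0186) and Sall4 at -1.39 (0.0148), although cryopreservation then goes with the set. Over all 7 libraries, which mix the sets, Nanog stayed within 53.6 to 82.8 FPKM. Its coefficient of variation was 14%, against 34.2% for Pou5f1, 44.1% for Sall4, 23.6% for Sox2 and 21.8% for Zscan10. Within set 1 it was 11% for Nanog, 4.08% for Pou5f1, 10.7% for Sall4, 3.1% for Sox2 and 13.7% for Zscan10. Within set 2 it was 13.7%, 22.8%, 11.3%, 22.9% and 13.1% in the same order. Nanog was thus not the gene that varied least within either set.

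fPSCs derived from E5.5 and E6.5 epiblasts held 555 and 420.5 FPKM of Pou5f1, 29.9 and 38.8 of Sox2, 75.4 and 91.5 of Nanog and 82.0 and 96.9 of Zscan10. These lie inside or next to the range of the long-term lines made from mESCs. Sall4 was at 158 and 218 FPKM, above all 17 other libraries. In a limma fit over these 9 libraries none of the 5 genes was called, where 0.452% of 11074 genes were. Sall4 was 1.22 higher (SE 0.41, unadjusted p = 0.0121, limma adjusted p = 0.264), and it was the gene among the 5 with an unadjusted p under 0.05. Against set 1 alone its difference was 0.57 (SE 0.19, limma adjusted p = 0.252).

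The genes of most similar course over the 19 libraries, by Pearson's r of log2(FPKM + 1) among 7833 genes that reached 10 FPKM, were different for each factor. For Pou5f1 they were Rpl7l1 (r = 0.95), Abt1 (0.94) and Hspe1 (0.94), the mitochondrial co-chaperonin. For Sox2 they were Atp1b1 (0.87), Hap1 (0.86) and Socs3 (0.83), the feedback inhibitor of LIF signalling, which was at a mean of 72.7 FPKM in mESCs and 1.61 in fPSCs. For Nanog they were Keap1 (0.88), Echdc2 (0.85) and Mpst (0.84), for Sall4 the corepressor Tle3 (0.94), Ccnjl (0.90) and Dyrk1a (0.90), and for Zscan10 they were Rbm27 (0.90), Otud4 (0.90) and Zfp280c (0.89). Between the 5 factors themselves r ran from -0.48 (Pou5f1 and Sall4) to 0.46 (Sox2 and Nanog). The points share groups and protocol text, and r is given as a description.

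Related genes were followed through lists. Of 21 genes for proteins known to bind Oct4 or Nanog, such as the NuRD subunits Mta1, Mbd3 and Chd4, 3 rose and 3 fell for fPSCs minus mESCs, where 17.3% of all genes rose and 23% fell (median 0.31, all genes -0.04), and none rose and 1 fell against EpiLCs, where 5.66% and 8.15% did (median -0.04, all genes 0.01). Against EpiSCs 4 rose and 1 fell, where 13.3% and 19% of all genes did (median 0.11, all genes 0.02). Of 18 genes known as targets of the factors, 3 rose and 13 fell in fPSCs relative to mESCs (median -4.01), none rose and 10 fell relative to EpiLCs (median -1.82), and 2 rose and 3 fell relative to EpiSCs (median 0.09), beside the same shares and medians of all genes. The strongest fall was that of Dppa5a, a marker of the naïve state, from a mean of 2169 FPKM in mESCs and 481 in EpiLCs to 0.486 in fPSCs. Lin28a, an RNA-binding regulator of let-7, moved the other way, from 18.6 FPKM in mESCs to 248 in fPSCs (3.57, SE 0.36, limma adjusted p = 4.20e-06). Fgf4 and Utf1, both with Oct-Sox enhancers and chosen after their values were seen, differed: Fgf4 was at 95.1 FPKM in mESCs, 58.8 in EpiLCs, 2.96 in EpiSCs and 7.99 in fPSCs, and Utf1 at 56.8, 486, 141 and 358.

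Paralogs moved on courses of their own. Pou3f1 (Oct6), a POU factor of the post-implantation epiblast, rose by 4.48 in fPSCs over mESCs (SE 0.36, limma adjusted p = 4.65e-07) and was lower than in EpiLCs, 29.9 against 103 FPKM (difference -1.84, limma adjusted p = 0.00362). Sox11 rose by 4.35 over mESCs (SE 0.29, limma adjusted p = 8.23e-08), from 0.142 to 23.1 FPKM. Sox1, a neural SoxB1 gene, was at 16.4 FPKM in EpiSCs and 0.0434 in fPSCs (-4.04, SE 0.17, limma adjusted p = 1.34e-09). Of the 11 tested SOX genes other than Sox2, 5 rose and 4 fell for fPSCs minus mESCs, where 17.3% of all genes rose and 23% fell. Among those that fell was Sox21, from 13.97 to 0.301 FPKM (-3.45, SE 0.31, limma adjusted p = 1.47e-06). For fPSCs minus EpiLCs 3 rose and 3 fell, where 5.66% and 8.15% of all genes did. For fPSCs minus EpiSCs none rose and 5 fell, where 13.3% of all genes rose and 19% fell (median -0.67, all genes 0.02). Sall2 rose by 2.92 over mESCs (SE 0.36, limma adjusted p = 2.65e-05) and Sall1 fell by 1.29 (SE 0.33, 0.00684).

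Single fPSCs of 4 clones gave another picture of Pou5f1 RNA. By immunostaining the study reports Oct4 protein in every cell of its fPSC cultures, so low counts here are not a share of cells without Oct4. The tables hold 92 and 90 cells with no cell name in common, 1 name is listed 2 times within a table, and no 2 cells have identical counts. Cells with at least 500 genes were kept, 181 of 182, with a median of 23867 counts and a range from 1125 to 722865. Pou5f1 had 75 of 11905751 counts, which is 6.30 CPM, the usual scaling of counts to the total. It was detected in 17 of 181 cells, 9.39% (95% exact binomial interval 5.57 to 14.6, for counting error only), in 7 of them by 1 count. A single cell of clone 3 held 30 of the 75 counts. Detection was 2.17% in clone 1 (1 of 46 cells), 8.89% in clone 2 (4 of 45), 19.6% in clone 3 (9 of 46) and 6.82% in clone 4 (3 of 44). Cells with Pou5f1 were deep, with a median of 148711 counts against 22267 in the others. When each cell was thinned to 5000 counts, which 167 cells reached, Pou5f1 was found in 0 cells, which allows a share of cells with a count of up to 1.80% by the limit of 3 counts and up to 2.19% by the exact binomial interval.

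The other genes were found more often. Sall4 was detected in 156 of 181 cells (86.2%, 80.3 to 90.9), Nanog in 111 (61.3%, 53.8 to 68.5), Zscan10 in 98 (54.1%, 46.6 to 61.6) and Sox2 in 25 (13.8%, 9.14 to 19.7). After thinning the shares were 66.5% for Sall4, 38.9% for Nanog, 25.7% for Zscan10 and 5.39% for Sox2. Sall4 had 379.5 CPM, Nanog 164, Zscan10 96.3 and Sox2 21.4. By clone, Sall4 was detected in 79.5% to 97.8% of cells, Nanog in 50% to 69.6%, Zscan10 in 47.8% to 64.4% and Sox2 in 13.04% to 15.9%, and within each gene the exact intervals of the 4 clones overlapped. As a measure of background, 5768 genes at 0 FPKM in all 7 long-term fPSC libraries had a count in a median of 0% of cells and in 4.05% at their 99th percentile. All 5 genes were above the latter over the 181 unthinned cells, but Pou5f1 in clone 1 was not. The background was not taken after thinning, so the thinned shares cannot be set against it.

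The genes were ranked in bulk fPSCs and in single cells. Among 10531 genes whose mean reached 1 FPKM in long-term fPSCs, Pou5f1 ranked 64 in bulk and 8539 by summed counts of the single cells. Sox2 ranked 2162 and 6356. Nanog ranked 895 and 1191, Sall4 697 and 383, and Zscan10 837 and 2258. Of 46 other genes within 1.25-fold of Pou5f1's bulk level, 1 was found in no more cells, and their median was 97.0% of cells. The labels name Smart-seq2 for the cells, and the listed reverse transcription primers join a cell barcode and random bases to oligo-dT, which places the barcode at the poly(A) end, while the bulk reads were aligned to cDNA. A BLAST search of the mm9 genome with the longest annotated transcript of each gene found, for Pou5f1 (1347 bases), 4 other places that hold 50% or more of it at 79.9% to 87.0% identity. In all, 5 places hold most of its last 300 bases. One of these, chr1:161223936-161224320, lies in the gene Rfwd2 and in no annotated exon, is 100% identical to the transcript over 28.6% of it and covers 98.7% of its last 300 bases. For Nanog the search found 1 place, chrX:87127651-87129235, with 97.4% identity over 71.8% of the transcript, and for Sox2, Sall4 and Zscan10 none with 50% or more. For Sall4, 1 place on chromosome X covers 98.3% of the last 300 bases at 90.2% identity. The part of such copies in the counts was not tested.

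**Figure D3:**
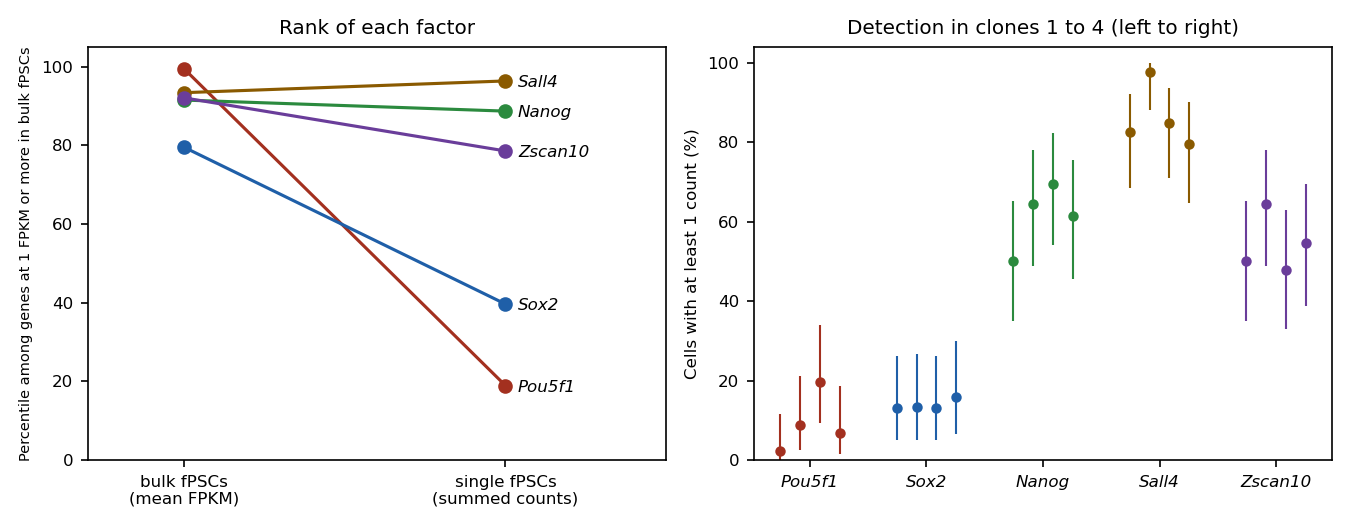
Left, percentile of each gene among 10531 genes, by mean FPKM in long-term bulk fPSCs and by summed counts in 181 single fPSCs. Right, percent of cells with at least 1 count in clones 1 to 4, with 95% exact binomial intervals. Pou5f1 goes from the 99.4th to the 18.9th percentile, and Nanog from the 91.5th to the 88.7th.

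Nanog and Sall4 were detected together in 103 of 181 cells, Sall4 and Zscan10 in 91 and Nanog and Zscan10 in 67. All 5 genes were detected in 3 cells, 4 in 18, 3 in 54, 2 in 64, 1 in 30 and none in 12. The median depth rose along this order from 10164 counts in cells with none to 314461 in cells with all 5. Nanog was found in 14 of 25 cells with Sox2 (56%) and in 97 of 156 without it (62.2%), and in 16 of 17 cells with Pou5f1 (94.1%), which were the deep ones.

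Chromatin of fPSCs at P10 was measured by ChIP-seq of H3K4me3, the mark of active promoters, of H3K27me3, the Polycomb mark, and by bisulfite sequencing. The labels list 2 replicates for each, the methods state that ChIP-seq replicates were joined, and the files used here give 1 value a bin of 100 bp, so no spread can be given. Within 5000 bp of the start site all 5 genes were at the 97.9th percentile or higher of 22089 protein-coding genes for H3K4me3: Pou5f1 at 6.97 RPKM (99.9th), Sox2 at 5.87 (99.7th), Sall4 at 5.64 (99.6th), Zscan10 at 5.16 (99.4th) and Nanog at 4.09 (97.9th), against a median of 1.13. Their z-scores were 0.10 to 0.21, and the highest bin of the genome held 51080 RPKM. Taking the smallest value, 1.24 RPKM, as 1 read, these windows hold 333 to 568 reads.

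For H3K27me3 Sox2 stood apart from the other 4. Sox2 had 1.13 RPKM, the 84.9th percentile, from 178 reads in the window. Pou5f1, Nanog, Sall4 and Zscan10 had 0.121, 0.140, 0.146 and 0.102 RPKM, at the 12.4th to 20.4th percentile, from 16 to 23 reads, and the median of all genes was 0.375. In Sox2 the mark lay away from the start site, at 3.09 RPKM from 1500 to 2000 bp after it and 2.83 from 5000 to 4500 bp before it, and at 0.128 in the first 500 bp. H3K4me3 peaked past the start site in all 5, in the bin 800 bp after it in Pou5f1 (29.9 RPKM) and Zscan10 (34.8), 600 bp in Nanog (26.1), 2700 bp in Sox2 (24.9) and 3400 bp in Sall4 (31.1).

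DNA methylation within 1000 bp of the start site averaged 0.158% in Sox2 (19 windows), 1.17% in Pou5f1 (12), 7.64% in Sall4 (14), 9.70% in Zscan10 (10) and 25.2% in Nanog (16), against a median of 36.6% over 21814 genes. Coverage is unknown, and no interval is given. Nanog, with 1 CpG in the 171 bases shown above, was at 0% in the 500 bp before the start site, 31.6% in the 500 bp after it, 5.25% and 9.80% in the next 2 steps of 500 bp, and 56.2% from 1000 to 500 bp before it. The stretch at 20% or below around the start site could cross at most 3 windows in a row without a value. It was 6700 bp long in Sox2 (99.8th percentile), 5700 in Sall4, 3100 in Pou5f1, 1700 in Zscan10 and 600 in Nanog, with a median of 700 over all genes. The CpG-rich sequence printed for Sox2 is part of its stretch, which runs over the whole gene. Nanog had a second low region from 5000 to 3500 bp before the start site, at 7.33% to 11%. Between 3500 and 1500 bp before it Nanog was at 79.3% to 98.8%. Pou5f1 was at 0% from 4000 to 3000 bp before the start site and at 42.8% from 3000 to 2500 bp. From 2500 to 1000 bp before it Pou5f1 was again low, at 0% to 11.5%. No window from 1000 to 500 bp before it had a value, so the Pou5f1 stretch ended there by the gap rule. Over the annotated gene, methylation averaged 1.25% in Sox2, 40.7% in Pou5f1, 63% in Nanog, 63.8% in Sall4 and 68.8% in Zscan10.

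**Figure D4:**
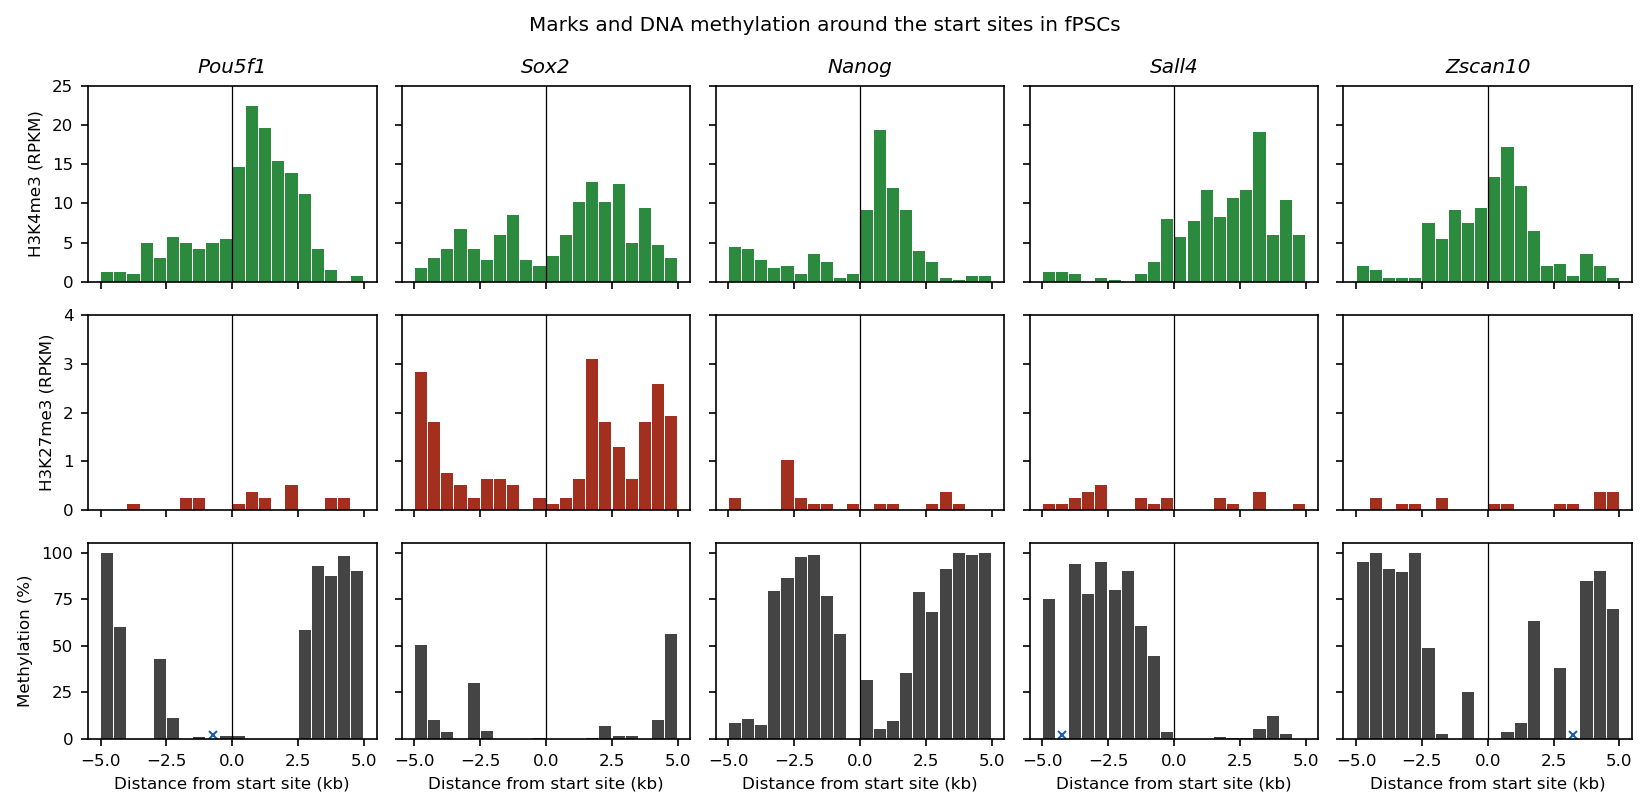
H3K4me3 and H3K27me3 (RPKM) and DNA methylation (%) in fPSCs in steps of 500 bp from 5 kb before to 5 kb after the start site, in the direction of transcription. Crosses mark steps without a methylation value. H3K4me3 lies mostly after the start site in all 5 genes, H3K27me3 reaches 1.5 RPKM in Sox2 only, and in Nanog the low methylation around the start site is broken by a step at 31.6%.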

How the data were processed

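Bulk mRNA of 19 libraries was deposited as FPKM per gene. Per the submitters' processing notes, the series used cutadapt 1.11, TopHat2 2.1.1, Cufflinks 2.1.1, Bowtie2 2.2.2, Trim Galore, STAR and BS-Seeker2 with genome build mm9. The single-cell tables are counts deposited by the authors from Smart-seq2 libraries processed with Drop-seq_tools, and it is not given in the sources used here whether molecules or reads were counted. H3K4me3 and H3K27me3 were deposited as RPKM and DNA methylation as a fraction, in bins of 100 bp. The methods state that ChIP-seq replicates were joined for later analysis, and whether the deposited values are joined is not clear.

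Genes with at least 1 FPKM in at least 2 libraries were tested with limma 3.58.1 (R 4.3.3) on log2(FPKM + 1), with Benjamini-Hochberg adjustment. FPKM hold no read counts, so the depth of the bulk libraries is unknown. Of 23608 entries, 4 under 2 repeated names were left out. Ratios to Pou5f1 were compared by exact two-sided permutation tests. Cells with at least 500 genes were kept, no doublets were removed, and intervals are exact binomial (Clopper-Pearson) at 95%. Promoter values are means over bins, with bins absent from the mark files taken as 0. Transcripts were searched against mm9 with blastn 2.17.0 at an e-value of 1e-20. The limma step was tested on simulated data.

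The 5 genes and the lists were chosen with earlier results of these data known. Named in addition were the 3 genes with the highest r to each factor and some genes picked per list. The pick was the largest and smallest change among called genes whose mean reached 10 FPKM in either group. Not all genes picked in the main comparisons are given. Alternatives were another pseudocount, filter, scaling, choice of libraries, cell filter, depth and window.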

Additional observations from a re-analysis of the deposited data

Results flagged for a closer look

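Among the 4 clones of single fPSCs, clone 3 stood apart in Pou5f1, with 12.3 CPM against 1.85 to 3.27 in the other 3 clones. A single cell of clone 3 held 30 of its 58 counts, and without that cell the 4 clones together had 3.82 CPM. Clone 4 stood apart in the share of cells with Sox2, 15.9% (7 of 44 cells) against 13.04% to 13.3% in the others (6 cells each), a difference of 1 cell that lies well inside the binomial intervals. Such a gap for the highest or lowest of 4 values is expected by chance in about 1 in 20 groups.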

How the results depend on the processing

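Of 654 recomputed values of single genes, 617 kept their direction and their side of the threshold, 8 lost the threshold, 10 gained it and 19 changed sign. The number of the 5 genes called moved from 4 to between 2 and 3 for EpiSCs minus EpiLCs when single libraries were left out, and with set 1 alone to 5 for fPSCs minus mESCs and to 2 for fPSCs minus EpiLCs. Every difference that changed sign was not called: with set 2 alone Pou5f1 was 0.12 for fPSCs minus mESCs, with set 1 alone Pou5f1 was -0.14 and Zscan10 0.17 for fPSCs minus EpiLCs and Sall4 0.47 for fPSCs minus EpiSCs, and with CMT as the only library of set 2 Sox2 was -0.094. Over single libraries left out, Pou5f1 ran from -0.15 to 0.75 and Zscan10 from -0.33 to 0.12 for fPSCs minus EpiLCs, Sall4 from -0.42 to 0.063 for fPSCs minus EpiSCs, and Sox2 from -0.003 to 0.36 for epiblast fPSCs minus fPSCs. Ratios to Pou5f1 changed sign with set 2 alone for Sall4 against mESCs (-0.023), for Sox2 (-0.12) and Sall4 (-0.10) against EpiLCs and for Nanog against EpiSCs (-0.04), and with set 1 alone for Zscan10 against EpiLCs (0.31) and EpiSCs (0.21). Over single libraries left out, the ratios against EpiLCs ran from -0.48 to 0.58 for Sox2, -0.14 to 1.57 for Sall4 and -1.07 to 0.28 for Zscan10. With 1 set alone these permutation tests cannot pass the threshold, since the smallest possible exact permutation p is 0.1 with set 1 and 0.0667 with set 2. The same holds where an mESC, EpiLC or EpiSC library is left out. With 1 fPSC library left out the smallest p is 0.0357, and no adjusted p of these tests was below 0.05. The cause of the changes of sign was not tested. Over all genes, fPSCs minus EpiLCs called 1728 with all 7 fPSC libraries, 3178 with set 1, 2648 with set 2, and 865 and 890 without EpiLC replicates 1 and 2. EpiSCs minus EpiLCs called 4488, and 2871 without EpiLC replicate 2 or 2425 without EpiSC replicate 2. EpiLCs minus mESCs called 3706, and 2416 or 2291 without an mESC replicate. fPSCs minus EpiSCs called 4041, and 2455 or 1523 without an EpiSC replicate. Epiblast fPSCs minus fPSCs called 50, and 119 with set 1 or 33 without the E6.5 library.

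With a replicate block over mESCs, EpiLCs and EpiSCs, 2 of the 5 genes were called for EpiLCs minus mESCs, where 33.7% of all genes were. For EpiSCs minus mESCs 4 were called against 54.9%, and for EpiSCs minus EpiLCs 5 against 42.6%. In the main fit these shares of all genes were lower, at 29.6%, 47.8% and 35.9%. Sall4 was called in addition in both EpiSC comparisons, as it was when only the 2 groups compared were fitted (limma adjusted p = 0.0347 and 0.022). Those fits called 57.9% of all genes for EpiSCs minus mESCs and 46% for EpiSCs minus EpiLCs. Deviations of same-numbered libraries correlated at 0.204, -0.199 and -0.134. With 2 libraries a state, this cannot settle whether the numbers pair the samples.

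With a minimum of 2 counts, detection was 5.52% for Pou5f1, 49.7% for Nanog, 76.2% for Sall4 and 38.1% for Zscan10. After thinning it was 0% for Pou5f1, 5.39% for Sox2, 38.9% for Nanog, 66.5% for Sall4 and 25.7% for Zscan10, and in cells with at least 2000 genes it was 92.1% for Sall4. Within 2500 bp, H3K4me3 was 11.02 RPKM in Pou5f1, 6.20 in Nanog and 8.97 in Zscan10, and H3K27me3 0.0878 in Nanog and 0.0502 in Zscan10. Methylation within 500 bp was 1.80% in Sall4 and 0% in Zscan10, and with a limit of 10% the low stretch of Sall4 was 3500 bp.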
